A study of Mus musculus with 4 samples.

Results

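The regions described here are places in the mouse genome away from the authors' reference points. At each, the authors' score of acetylation of histone H3 on lysine 27 (H3K27ac), described below, set 2 libraries apart. These came from colonic epithelium of mice given water and of mice given dextran sulfate sodium (DSS). The authors deposited 2 lists of 1000 such regions, those most enriched in water and those most enriched in DSS. Regions on the X and Y chromosomes and mitochondrial DNA were left out, which kept 1965 of the 2000 regions: 987 water-enriched and 978 DSS-enriched. The water library came from adult mice of 2 to 4 months given water only, and the DSS library from adult mice of the same ages given 3% DSS for 6 days. In both, cells were scraped from the lining of the colon and the same lot of an H3K27ac antibody was used for chromatin immunoprecipitation and sequencing (ChIP-seq). Each side had 1 library, and the sources used here do not give strain, sex, genotype or whether animals were pooled. A scraping can also carry immune and connective tissue cells, and the lists hold no marker genes by which the cell type could be checked. HNF4A ChIP-seq peaks of the same design, 1 library each from water and DSS, were used as a second readout.

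H3K27ac is placed by acetyltransferases on nucleosomes that flank active enhancers and promoters, and its loss or gain away from promoters is widely used to read changes in enhancer activity. DSS is toxic to the colonic lining and causes ulceration, inflammation and later repair. HNF4A is a nuclear receptor that binds enhancers of genes of differentiated intestinal epithelium.

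The H3K27ac libraries held 10143920 tags in water and 10329416 in DSS, and all ratios below were scaled to these totals. The libraries stood apart on the Y chromosome, which was left out. There 8 separate listed sites held 1 nucleosome tag in water and 402 in DSS, and whether this bears on other chromosomes was not tested. Sex is not given for either library, so sex and treatment cannot be told apart here. Each region was 450 to 645 bp wide and carried a count of nucleosome tags, which lie on the nucleosomes of the region, and of linker tags, which lie between them. This reading of the headers nuc and lin is not explained in the files. The deposited score of a region is the square root of its nucleosome count minus the square root of its linker count, scaled to the library, in DSS minus water. The lists were cut by the authors on this score, whose absolute values, multiplied by 1000, ran from 1.30 to 3.801 in the water-enriched and from 1.27 to 4.55 in the DSS-enriched list. The tag values below therefore describe the lists and are not evidence that DSS changed them. The weakest water-enriched region inside the threshold, on chromosome 8 (28860361 to 28860931), held 199 water and 111 DSS nucleosome tags. Its DSS-enriched counterpart on chromosome 2 (150704286 to 150704811) held 29 and 77, and regions just outside the lists were not analysed here. Intervals are 95% intervals that cover counting error only, and with 1 library a side no difference was tested against the spread between animals.

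Water-enriched regions held many tags in both libraries. Their summed nucleosome tags were 317373 in water and 179975 in DSS, a ratio of DSS to water of 0.56, and all their tags together made up 3.30% of the water library and 1.95% of the DSS library. The median region held 266 nucleosome tags in the water library and 139 in the DSS library, and no water-enriched region had fewer than 20 tags in DSS. More than 2-fold lower in DSS were 392 regions (39.7% of the list), where 19.9% of all 1965 regions were. Of the 392 regions, 370 lay between 2-fold and 4-fold. Differences beyond 4-fold were rare, with 21 regions between 4-fold and 8-fold and 1 beyond 8-fold. The authors' choice of the list used this same contrast, so its share past 2-fold carries no further reading.

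DSS-enriched regions mostly held few tags in water. Their summed nucleosome tags were 64926 in water and 139162 in DSS, a ratio of 2.10, and all their tags made up 0.82% of the water library and 1.46% of the DSS library. The median region held 39 nucleosome tags in the water library and 107 in the DSS library. More than 2-fold higher in DSS were 697 regions (71.3%), where 35.5% of all regions were, and this share too was set by the list. Between 4-fold and 8-fold lay 171 regions, and 75 lay beyond 8-fold. The score is a difference of square roots, so where nucleosome tags carried it, a region with few tags needed a larger fold to enter a list. Regions that entered through linker tags, described below, did not.

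**Figure D1:**
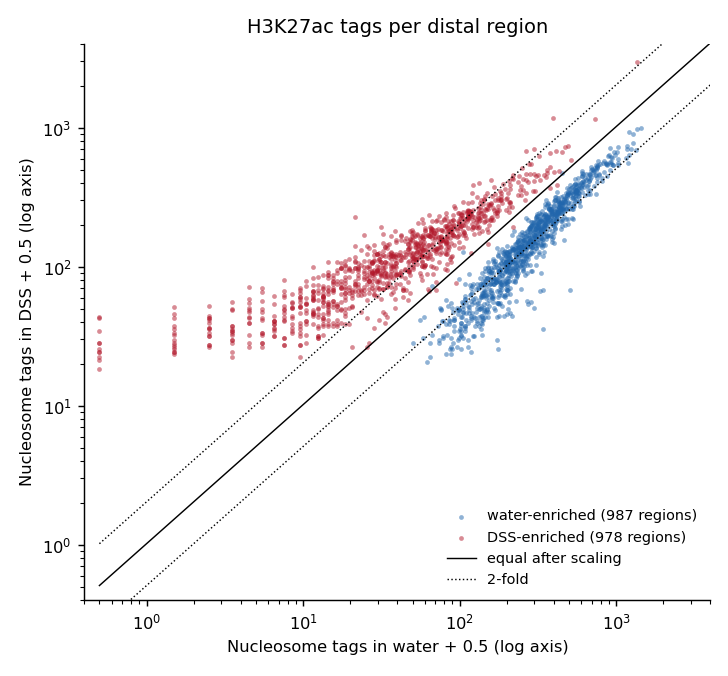
Nucleosome tags of each region in water (horizontal, log axis) and DSS (vertical, log axis), with 0.5 added to every count; points are regions, the solid line marks equal levels after scaling to library totals and the dotted lines 2-fold differences. The 987 water-enriched regions lie in a narrow band at high counts, and the 978 DSS-enriched regions spread from 0 to 1355 tags in water.

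The starting level separated the DSS-enriched list into classes of different level. In 154 regions (15.7%) water held at most 10 nucleosome tags, and the medians were 5 tags for water and 39 for DSS. A further 414 regions held 11 to 50 tags in water, with medians of 26 and 84.5 tags and a median log2 ratio (DSS over water) of 1.67. At the other end, 194 regions (19.8%) held more than 100 tags in water, with medians of 152.5 and 264.5 and a median log2 ratio of 0.75. The list thus holds both gains from few tags and gains on sites that already held many in water. No water-enriched region had at most 10 tags in DSS, and 122 of them (12.4%) held 11 to 50, and their medians were 106 tags for water and 41 for DSS.

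The 10 regions with the largest losses, ranked with the pseudocount of 0.5 and with at least 50 tags, held 25 to 67 nucleosome tags in DSS. A region on chromosome 6 (84376091 to 84376641), 2.53 kb from its reference point, went from 341 nucleosome tags in water to 35, 9.92-fold lower in DSS (interval 6.99 to 14.5). Its linker tags went from 39 to 6, and it held no HNF4A peak. The region of highest absolute score, on chromosome 16 (92148171 to 92148716), went from 506 tags to 67, a 7.69-fold difference (5.95 to 10.1), and one on chromosome 1 (152590026 to 152590571) from 175 to 25, a 7.13-fold difference (4.67 to 11.3). The next losses were smaller. Also on chromosome 16, 59.3 kb from its reference point, a region (97891786 to 97892351) dropped from 298 tags to 50, a 6.07-fold difference (4.49 to 8.36). A region on chromosome 12 (58931591 to 58932156), 266.8 kb from its reference point, went from 173 tags to 29, a 6.07-fold difference (4.08 to 9.34). Both regions on chromosome 16 overlapped an HNF4A peak, in water alone, and the other 3 overlapped none. Losses of 5.01-fold and 4.98-fold were found 264.0 kb from the reference point on chromosome 1 (106989021 to 106989546, 325 tags against 66) and 10.6 kb from it on chromosome 4 (57366276 to 57366841, 215 against 44). Among the 10 water-enriched regions of largest fold, 3 held a water HNF4A peak and none held a DSS peak, beside 31.6% and 17.8% of the quartile of the list with the largest folds.

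The 5 water-enriched regions with most tags had folds between 1.33 and 1.69. The first, on chromosome 12 (85049626 to 85050126), held 1441 water and 996 DSS nucleosome tags, 1.47-fold lower in DSS (1.36 to 1.60). The next, on chromosome 4 (10899626 to 10900236), held 1355 and 981, 1.41-fold lower (1.29 to 1.53). On chromosome 1 (90117296 to 90117776) the counts were 1272 and 901, and on chromosome 2 (122092411 to 122093021) they were 1207 and 927. All 5 overlapped an HNF4A peak in both libraries, where 30.6% of the whole list did. Among regions of the list with 640 or more nucleosome tags over both libraries, 53.2% of those with smaller folds overlapped a DSS peak. Of those with larger folds 56.1% did. The 996 DSS tags of the first are the highest DSS count in the water-enriched list.

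Regions with the largest gains began with almost no tags in water. Of regions with at least 50 nucleosome tags over both libraries, the largest ratio was on chromosome 5 (105583146 to 105583681), with 1 water tag and 51 DSS tags, a ratio of 50.1 whose interval runs from 8.59 to 2017. A region on chromosome 16 (27348371 to 27348971) went from 2 tags to 52, a ratio of 25.5 (6.72 to 216). These counts are so low in water that the size of the gain is poorly fixed. A region on chromosome 13 (95583656 to 95584141) held 4 and 71 tags, a ratio of 17.4 (6.52 to 65.7). On chromosome 8 (87656496 to 87656961) the counts were 3 and 55, a ratio of 18.0 (5.85 to 90.0). None of the 10 DSS-enriched regions of largest ratio overlapped an HNF4A peak in either library, as was so for 76.7% of the whole list.

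In 11 DSS-enriched regions no nucleosome tag was found in water. The one with most tags in DSS, on chromosome 17 (66086411 to 66086871), held 43, which is at least 14.1-fold higher in DSS when the limit of 3 counts that a count of 0 allows is taken per library. That bound leaves out the counting error of the DSS tags, and the exact interval starts at 10.96-fold. Next came regions on chromosome 12 (112674416 to 112674911) with 42 tags, at least 13.7-fold (exact interval from 10.7), and on chromosome 11 (61818926 to 61819466) with 34, at least 11.1-fold (from 8.57). The other 8 held 18 to 28 tags in DSS. None of the 11 overlapped an HNF4A peak, in a list where 76.7% of regions had none, and that on chromosome 12 lies in a group of gaining regions described below.

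The 10 DSS-enriched regions of highest score held 21 to 1355 nucleosome tags in water. The highest score was on chromosome 18 (3005331 to 3005961), from 1355 tags to 2955, a ratio of 2.14 (2.01 to 2.29), with HNF4A peaks in both libraries. On chromosome 8 (42886691 to 42887206) 31 tags in water became 192 in DSS, a ratio of 6.08 (4.15 to 9.20). On chromosome 4 (95067701 to 95068286), 156.2 kb from its reference point, 32 became 171, a ratio of 5.25 (3.58 to 7.91), at a site with an HNF4A peak in both libraries. On chromosome 13 (104563636 to 104564276) 132 became 400, a ratio of 2.98 (2.44 to 3.65). Not among these 10, but among the 5 DSS-enriched regions with most nucleosome tags, was one on chromosome 7 (134621711 to 134622241). It went from 728 tags to 1160, a ratio of 1.56 (1.43 to 1.72), with an HNF4A peak in the water library only. The region on chromosome 15 at 74916726 to 74917261, with 394 tags in water and 1181 in DSS, lay on a peak that ranked 7 by score in each HNF4A list. The best peaks of the region on chromosome 18 ranked 36 in water and 31 in DSS. The regions were not checked against places known for artefact signal, and any such regions remain in the counts.

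Linker tags were few, but they weighed differently in the lists. In water-enriched regions, linker tags made up 5.30% of all tags in water and 10.5% in DSS, and their sum was 17774 in water and 21124 in DSS while nucleosome tags went down. In DSS-enriched regions linker tags made up 22.4% in water and 7.98% in DSS, with sums of 18696 and 12060 while nucleosome tags went up. The linker share was higher in DSS in 924 of 987 water-enriched regions and lower in DSS in 860 of 978 DSS-enriched ones. The score subtracts linker from nucleosome signal, so the choice of regions favours this pattern and it is given as a description.

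Splitting each score into its nucleosome and linker parts showed which regions owed their place to nucleosome tags. The linker part had a median of 10.2% of the score in water-enriched and 15.0% in DSS-enriched regions. It was over 50% in 33 water-enriched regions (3.34%) and in 110 DSS-enriched regions (11.2%). In those 110 regions nucleosome tags were 1.37-fold higher in DSS at the median and all tags 1.01-fold, and 52 of them held fewer tags in DSS than in water after scaling. Their tags were thus nearly equal in number at the median, and it was the division between nucleosome and linker that differed. In the 669 DSS-enriched regions with a linker part between 0 and 50%, nucleosome tags were 2.63-fold and all tags 2.18-fold higher at the median. The linker part was negative in 297 water-enriched and 199 DSS-enriched regions, in which linker tags moved with nucleosome tags. These had the larger folds: 2.14-fold lower and 3.66-fold higher in DSS. To pass the score threshold, a region with a negative linker part needs a larger nucleosome part, and one with a high linker part a smaller one. The choice of regions thus favours this order of folds, which is given as a description.

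**Figure D2:**
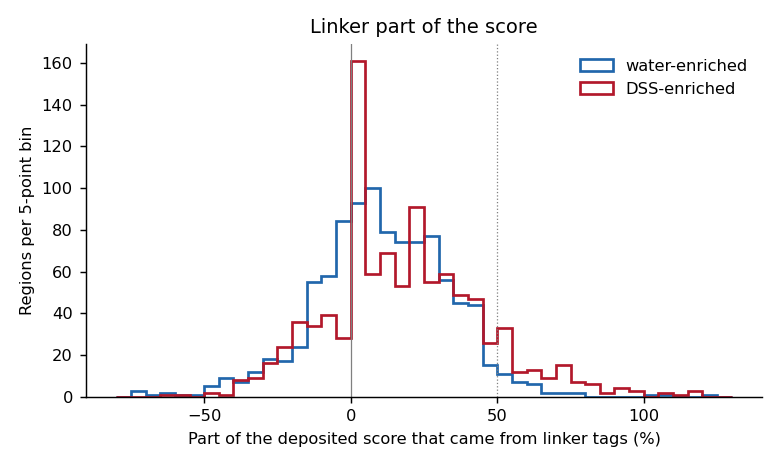
Part of each region's deposited score that came from linker tags (horizontal, in percent) against the number of regions per bin of 5 points (vertical), for water-enriched and DSS-enriched regions. The dotted line marks 50%, beyond which 33 water-enriched and 110 DSS-enriched regions lie, and the DSS-enriched peak just above 0 includes 84 regions with no linker tag in either library.

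With nucleosome and linker tags counted together, 320 water-enriched regions (32.4%) were more than 2-fold lower in DSS, where 16.5% of all 1965 regions were. In the DSS-enriched list 579 (59.2%) were more than 2-fold higher, where 29.5% of all regions were. In all tags 5 water-enriched and 54 DSS-enriched regions went against their list. The strongest such case, on chromosome 16 (24404866 to 24405416), held 25 nucleosome and 44 linker tags in water against 26 and 1 in DSS, so that its tags were 2.60-fold fewer in DSS. On chromosome 14 (60220406 to 60221021) the counts were 26 and 54 in water against 28 and 7 in DSS. Among water-enriched regions, that on chromosome 5 (123589061 to 123589651) held 452 nucleosome and 436 linker tags in water against 468 and 693 in DSS, 1.28-fold more tags in DSS. Linker tags made up 99.1%, 97.0% and 104% of the scores of these 3 regions.

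Some regions of opposite lists overlapped. There were 12 such pairs, formed by 11 water-enriched and 12 DSS-enriched regions, and the centres of a pair lay 172.5 to 545 bp apart, with a median of 202.5 bp. The pair with most tags, on chromosome 12 (58640121 to 58640731 water-enriched, 58640341 to 58640941 DSS-enriched), held in its water-enriched window 603 nucleosome and 384 linker tags in water against 447 and 448 in DSS. In the DSS-enriched window, 215 bp further on, the counts were 513 and 426 in water against 587 and 280 in DSS. All tags had log2 ratios of -0.17 and -0.14 in the 2 windows. A pair on chromosome 7 (108249816 to 108250431 and 108250011 to 108250616) had log2 ratios of all tags of -1.12 and -1.04, so that both windows held fewer tags in DSS, the one listed as DSS-enriched included. In 9 of the 12 pairs all tags moved in the same direction in both windows. Of the 3 others, the pair furthest apart was on chromosome 10: a window of 700 nucleosome tags in DSS and 296 in water (129979076 to 129979606) touched by 10 bp a window of 43 in DSS and 101 in water (129979596 to 129980176). The linker part exceeded 50% of the score in 9 of the DSS-enriched and 3 of the water-enriched members.

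**Figure D3:**
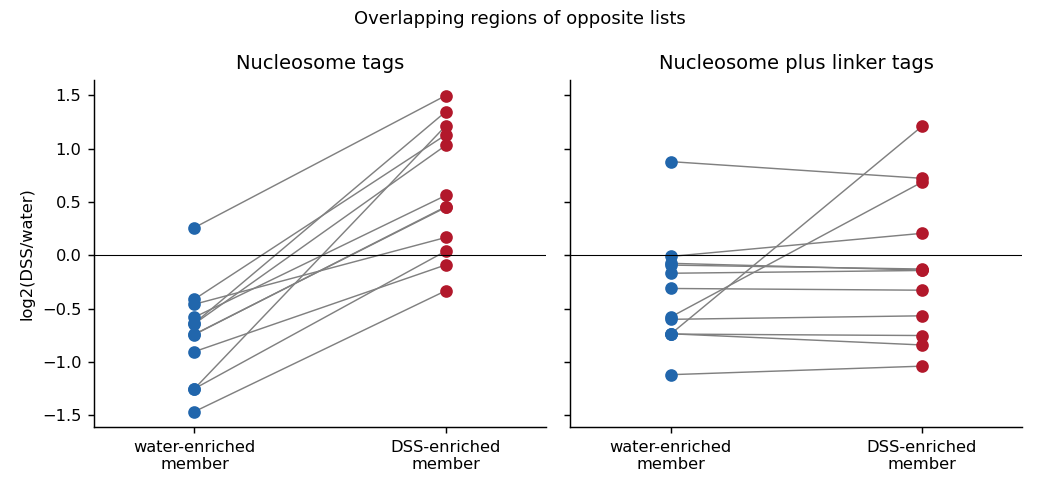
The log2 ratio of DSS to water (vertical) for the 12 overlapping pairs of opposite lists, with the water-enriched member at left and the DSS-enriched member at right of each panel, joined by a line; the left panel counts nucleosome tags and the right panel nucleosome plus linker tags. The lines rise in the left panel, and most lie nearly flat in the right panel, where 9 pairs have both members on the same side of 0.

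The lists also give, for each region, a distance, read here as one to a reference point of unnamed kind. A region can lie on either side of its point, so its centre plus and minus the distance give a pair of candidate positions. Where candidates of different regions met within 2 bp, they were taken to share a point; how often candidates meet without a shared point was not tested. This placed 658 regions (33.5%) at 258 points that each served at least 2 sites: 356 water-enriched (36.1%) and 302 DSS-enriched (30.9%). Of these points, 87 served water-enriched regions alone, 71 DSS-enriched regions alone, and 100 (38.8%) served both. Overlapping windows were merged into 1 site within a list only, so an overlapping pair of opposite lists counts as 2 sites. Some mixed points hold nothing but such a pair, as does that at 58647108 on chromosome 12. At the 100 mixed points the water-enriched regions had a median log2 ratio of -0.77 and lay at a median of 33.0 kb from the point, and the DSS-enriched regions had 1.15 and lay at 26.5 kb. No gene table of the build of the files (mm9) was used here, so points and regions are given by position and not by gene.

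The point with most gaining sites lay on chromosome 6 at 82724448, with 8 DSS-enriched regions at 7 separate sites within 29.7 kb. All 8 lay between 2.58 and 26.5 kb from the point, 7 of them on its lower-coordinate side, and all were more than 2-fold higher in DSS. Nucleosome tags of the separate sites summed to 152 in water and 535 in DSS, a ratio of 3.46 (2.88 to 4.17). The largest gain there was from 5 tags to 33, a ratio of 6.48 (2.51 to 21.3), and the smallest from 29 to 71, a ratio of 2.40 (1.54 to 3.84). Of the 8 regions 1 overlapped a water HNF4A peak and none a DSS peak, beside 21.3% and 14.0% of the DSS-enriched list. Of its regions with 11 to 50 tags in water, 13.5% and 9.90% did. Further along the same chromosome, 3 gaining regions (82813316 to 82853651) went from 76 tags to 292 in sum, a ratio of 3.77 (2.92 to 4.92).

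A second group of gaining regions lay on chromosome 12 (112666501 to 112676816), with 8 regions at 5 sites over 10.3 kb and sums of 133 tags in water and 479 in DSS, a ratio of 3.54 (2.91 to 4.32). The point at 112680870 served 5 of them, at 4.35 to 12.6 kb. Its members ranged from 36 tags in water and 101 in DSS to 0 and 42, the latter among the 11 regions without a water tag. On chromosome 1 the point at 193645350 served 5 DSS-enriched regions at 17.9 to 27.5 kb, with ratios from 1.82 (1.52 to 2.19) to 7.64 (3.802 to 17.4). A tight group on chromosome 19 (11303976 to 11309171) held 4 gaining regions over 5.195 kb, with 172 tags in water and 442 in DSS, a ratio of 2.52 (2.11 to 3.03). Another on chromosome 6 (146742041 to 146744796) held 3 regions over 2.76 kb, with 61 and 283 tags, a ratio of 4.56 (3.44 to 6.11). The 2 other groups of 4 sites were wider and gained less, 2.02-fold (1.73 to 2.36) on chromosome 6 (137455746 to 137530876) and 1.88-fold (1.58 to 2.23) on chromosome 8 (129082296 to 129185246).

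Groups of losing regions held more tags in water than the groups above, as did their list as a whole (median 266 tags against 39). On chromosome 4, the point at 55545348 served 7 water-enriched regions at 6 sites, all on its higher-coordinate side at 71.4 to 186.2 kb, and no DSS-enriched region. Their tags ranged from 121 to 384 in water and from 58 to 217 in DSS, and each was lower in DSS by 1.54-fold (1.27 to 1.88) to 2.12-fold (1.54 to 2.96). The intervals of these extremes overlap, over a span of 115.4 kb. On chromosome 6 (52198701 to 52248971) 6 water-enriched regions lay within 50.3 kb, with sums of 1266 tags in water and 605 in DSS, 2.13-fold lower in DSS (1.93 to 2.35). These 6 regions lay 3.17 to 14.8 kb from their points, nearer than those on chromosome 4. On chromosome 3 the point at 29912126 served 5 water-enriched regions on both of its sides, from 6.96 to 214.3 kb, all more than 2-fold lower in DSS (2.12-fold to 2.73-fold). The strongest loss over a group was on chromosome 17 (85440211 to 85452576), where 3 sites held 832 tags in water and 312 in DSS, 2.72-fold lower (2.38 to 3.10). The smallest among groups of 4 or more sites was on chromosome 1 (132658006 to 132735986), with 1168 and 771 tags, 1.54-fold lower (1.41 to 1.69).

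The 3 mixed points described here showed losses and gains side by side. On chromosome 1 the point at 166388486 served 7 water-enriched regions, from 46.8 kb on one side to 85.2 kb on the other, and 1 DSS-enriched region 8.62 kb away between them. The losing regions held 245 to 660 tags in water and 134 to 360 in DSS, while the gaining one held 20 and 52. On chromosome 13 the point at 5857338 served 4 DSS-enriched regions, of which 3 lay at 31.5 to 32.5 kb with 3, 14 and 68 tags in water against 48, 108 and 173 in DSS. At 54.0 and 54.3 kb on the same side lay 2 overlapping water-enriched windows, with 573 and 537 tags in water and 338 and 271 in DSS. The next point on that chromosome, at 5860734, served 4 water-enriched regions alone, at 148.4 to 215.7 kb on the other side. On chromosome 10 the point at 17443032 served 4 losing regions at up to 252.2 kb and 1 gaining region, the nearest, at 39.2 kb, all on its lower-coordinate side. The overlapping losing windows from 17250661 to 17251556 held 305 and 290 tags in water and 103 and 93 in DSS, 3.02-fold (2.40 to 3.81) and 3.18-fold (2.51 to 4.06) lower. At these 3 of the 100 mixed points no gaining region held more than 68 tags in water, and no losing one fewer than 245. This did not hold at every mixed point. At 135027741 on chromosome 1 a DSS-enriched region held 358 tags in water and the water-enriched one 283. The lists, cut on these counts, differ in level as a whole, with medians of 266 and 39 tags in water.

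**Figure D4:**
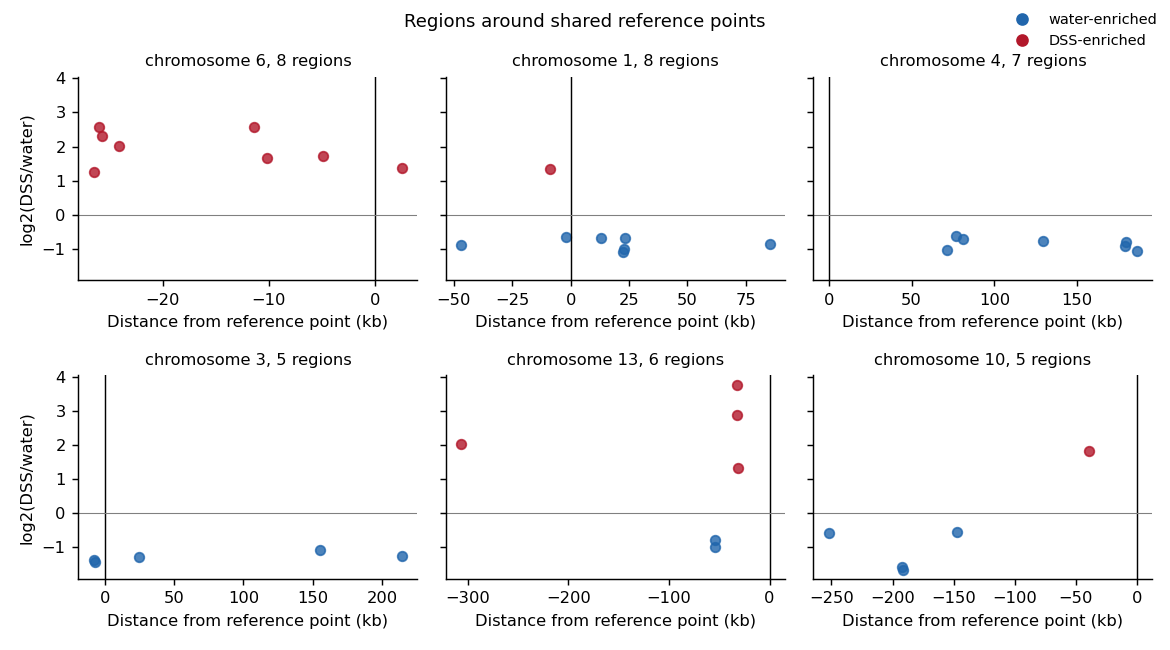
Regions around 6 shared reference points, the 4 with 5 or more separate sites and 2 of the 13 with 4 sites (those on chromosomes 13 and 10): distance of each region's centre from the point in kb (horizontal, negative for lower coordinates) against its log2 ratio of nucleosome tags, DSS to water (vertical). The point on chromosome 6 holds 8 gaining regions, those on chromosomes 4 and 3 hold 7 and 5 losing ones, and those on chromosomes 1, 13 and 10 hold both kinds.

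Linking separate sites of one list at gaps of up to 50 kb gave 22 stretches of 3 or more sites in each list, with 75 sites in each. These were 8.67% of 865 separate water-enriched sites and 8.24% of 910 DSS-enriched ones. Most sites stood alone: 640 (74.0%) and 691 (75.9%). Summed nucleosome tags over these stretches were between 1.53-fold and 2.72-fold lower in DSS in water-enriched stretches, and between 1.48-fold and 4.56-fold higher in DSS-enriched ones. The counts of stretches depend on the permitted gap, with 7 water-enriched and 8 DSS-enriched at 12500 bp and 35 and 28 at 100 kb.

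Median differences changed little with distance from the reference point in water-enriched regions and were somewhat larger at greater distance in DSS-enriched ones. Water-enriched regions within 10 kb had a median log2 ratio of -0.85 (260 regions), those at 10 to 50 kb -0.92 (462), those at 50 to 100 kb -0.95 (149) and those beyond 100 kb -0.94 (116). DSS-enriched regions had 1.30 within 10 kb (271 regions), 1.39 at 10 to 50 kb (485), 1.44 at 50 to 100 kb (127) and 1.56 beyond 100 kb (95). These medians were not tested against each other. Every chromosome analysed held both kinds of region. The DSS-enriched share of a chromosome's regions was highest on chromosome 19, at 43 of 72 (59.7%, Wilson interval 48.2 to 70.3), and lowest on chromosome 13, at 42 of 99 (42.4%, 33.2 to 52.3). Both intervals include an equal split.

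HNF4A peaks, which played no part in the choice of regions, overlapped water-enriched regions more often. A water HNF4A peak was held by 456 of 987 water-enriched regions (46.2%, interval 43.1 to 49.3) and by 208 of 978 DSS-enriched ones (21.3%, 18.8 to 23.9). The difference was 24.9 points (20.8 to 28.9). For DSS peaks the shares were 32.8% and 14.0%, a difference of 18.8 points (15.1 to 22.4). The lists differ in tag level, however, and overlap with water peaks was more frequent in regions with more tags. Within quartiles of summed nucleosome tags over both lists, a split added after the values were seen, the difference was 9.85 points for water peaks and 6.33 for DSS peaks, each a weighted mean over the quartiles. In the quartile with most tags (470 or more), 252 of 414 regions of the water-enriched list (60.9%) held a water peak, against 32 of 77 of the other list (41.6%), a gap of 19.3 points (7.18 to 30.6). For DSS peaks the gap there was 26.2 points (14.7 to 35.4). At 134 to 258 tags the shares for water peaks were 31.0% and 26.0%, 4.97 points apart (-3.02 to 13.1), and for DSS peaks 17.1% and 18.1%, or -1.01 points (-7.68 to 5.98). At 258 to 469 tags the gaps were 7.84 points (-1.16 to 16.4) and 4.03 points (-4.14 to 11.6). In the quartile with fewest tags, which held 43 water-enriched regions, they were 14.9 points (3.77 to 29.8) and 2.40 points (-3.85 to 14.9). The gap between the lists was thus resolved for both kinds of peak only among regions with most tags. Peaks also sat nearer the middle of water-enriched regions, in a comparison in which tag level was not held equal. The best peak in DSS was centred within 100 bp of the region's centre in 176 of 324 water-enriched regions (54.3%, 48.9 to 59.7) and in 55 of 137 DSS-enriched ones (40.1%, 32.3 to 48.5), or 14.2 points more (4.19 to 23.7). For water peaks these were 243 of 456 (53.3%) and 93 of 208 (44.7%), a difference of 8.58 points (0.38 to 16.6). The median offset from the centre was 84.5 bp in water-enriched and 180.5 bp in DSS-enriched regions for water peaks. Overlapping regions share peaks and are not independent. No depth is known for the HNF4A libraries, and the DSS list is the shorter, with 10688 peaks against 17886.

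Before tag level was considered, HNF4A overlap was rarer where the H3K27ac difference was larger. In the quartile of water-enriched regions with the smallest folds (up to 1.62-fold), 137 of 247 (55.5%, 49.2 to 61.5) held a water peak, and in the quartile with the largest (from 2.29-fold) 78 of 247 did (31.6%, 26.1 to 37.6). In DSS-enriched regions the share went from 92 of 245 (37.6%, 31.7 to 43.8) in the first quartile (median 1.58-fold) to 31 of 245 (12.7%, 9.06 to 17.4) in the last (median 5.81-fold). Tag level moved along with fold: the median of nucleosome tags over both libraries was 646 in the first and 245 in the last quartile of the water-enriched list, and 307 and 67 in the DSS-enriched list. Regions were therefore split at the median fold within each quartile of tag level. In the water-enriched quartile with most tags, 62.1% of smaller-fold and 69.1% of larger-fold regions held a water peak, which is -7.01 points (-18.5 to 4.80) for smaller minus larger. In the quartile with fewest tags the shares were 37.1% and 23.6%, 13.5 points apart (2.05 to 24.5), and in the middle quartiles the intervals included 0. For DSS peaks the interval included 0 in all 4 water-enriched quartiles. In the DSS-enriched quartile with most tags the shares for water peaks were 44.7% and 25.4%, which lie 19.3 points apart (7.36 to 30.5), and for DSS peaks 30.1% and 14.8%, which lie 15.3 points apart (4.89 to 25.4). The next quartile gave 11.5 points (0.42 to 22.2) for water peaks and 8.20 points (-1.34 to 17.6) for DSS peaks. In the DSS-enriched quartile of 79 to 149 tags the difference was -0.82 points (-10.3 to 8.64) for water peaks. For DSS peaks it was -4.92 points (-13.6 to 3.69). In the DSS-enriched quartile with fewest tags the shares for water peaks were 4.88% and 9.02%, or -4.14 points (-11.1 to 2.49). Tag level and fold were thus not fully separated.

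**Figure D5:**
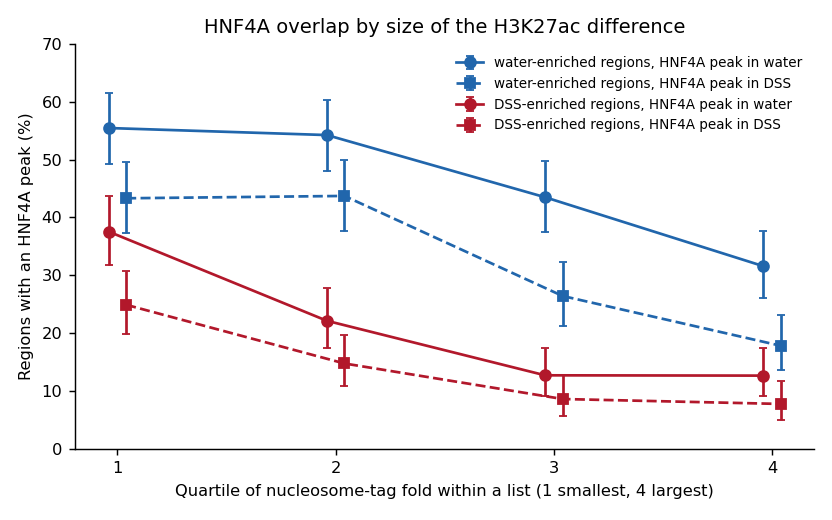
Percent of regions that overlap an HNF4A peak (vertical) in each quartile of nucleosome-tag fold within a list (horizontal, 1 smallest), for water-enriched and DSS-enriched regions and for HNF4A peaks in water and in DSS; bars are Wilson 95% intervals. The share for water peaks goes from 55.5% to 31.6% in water-enriched and from 37.6% to 12.7% in DSS-enriched regions, while tag level falls along the same axis.

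Of the classes of starting level, gaining regions with fewest tags in water overlapped HNF4A peaks least. Of the 154 DSS-enriched regions with at most 10 nucleosome tags in water, 12 (7.79%, 4.51 to 13.1) overlapped a water peak and 5 (3.25%, 1.39 to 7.37) a DSS peak. Of the 194 with more than 100 tags in water, 74 (38.1%, 31.6 to 45.1) and 48 (24.7%, 19.2 to 31.3) did. Water-enriched regions with more than 100 tags in DSS held a water peak in 345 of 640 (53.9%, 50.03 to 57.73), and those with 11 to 50 tags in DSS in 28 of 122 (23.0%, 16.4 to 31.2). DSS-enriched regions whose score came mostly from linker tags held a water peak in 35 of 110 (31.8%, 23.9 to 41.0). With a linker part between 0 and 50%, 139 of 669 did (20.8%, 17.9 to 24.0), and with one below 0, 34 of 199 (17.1%). These classes differed in tag level, with medians of 64, 36 and 35 nucleosome tags in water. Of all DSS-enriched regions with 51 to 100 tags in water, 66 of 216 (30.6%) held a water peak. Whether the linker part bears on overlap at equal tag level was not tested.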

How the data were processed

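H3K27ac was profiled in 1 water and 1 DSS library. Coordinates are of build mm9, per the submitters' processing notes, which also list MACS2 and CASAVA 1.8.2 without a role for the latter. Per the file headers, the deposited counts are raw tags of reads marked MAPQ20, and the deposited score, named NSD, is the authors' own. The headers' WT was read as water, and DSS carries an unexplained r2. Library totals were solved from the score, which the counts rebuilt with a largest error of 5.12e-10. The authors deposited HNF4A peaks of 600 bp, 1 list per library (17886 in water, 10688 in DSS), with a score of unstated kind used only for ranks. The distance, headed id, was read from its behaviour between neighbouring regions.

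Counts were scaled by library totals. Log2 ratios used a pseudocount of 0.5. Ratio intervals are exact conditional (Clopper-Pearson), shares have Wilson and differences Newcombe intervals. Peaks overlapped from 1 bp. Code was tested on simulated data. Python 3.11.15, SciPy 1.17.1 and pandas 2.3.3 were used. Region coordinates are as deposited, with their base of counting unstated, and peak starts were made 1-based. Gene lists were not used, as no mm9 annotation was used here. Regions named were drawn from the 10 of highest absolute score, the 10 of largest ratio with at least 50 tags, the 5 with most tags, groups, overlaps between lists and the 5 most against their list. The members, lists and comparisons were chosen with earlier results of these data known. Shared reference points, linker parts, tag-level splits and regions without a water tag were added after the values were seen.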

Additional observations from a re-analysis of the deposited data

Results flagged for a closer look

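Listed regions on 3 chromosomes left out of the comparison also held signal. On the Y chromosome lay 10 DSS-enriched and 0 water-enriched regions, and their 8 separate sites held 402 nucleosome tags in DSS against 1 in water. On the X chromosome, 11 DSS-enriched regions held 1285 DSS and 409 water nucleosome tags, 3.09-fold higher in DSS (2.76 to 3.46), beside 13 water-enriched regions of which 11 separate ones held 1108 in DSS and 2266 in water. A single mitochondrial region held 35 DSS and 18 water nucleosome tags, 1.91-fold higher in DSS (1.05 to 3.58), and 42 against 44 tags in all. Whether what sets the Y chromosome tags apart bears on the results on other chromosomes was not tested.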

How the results depend on the processing

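For 10 results, 50 alternative values were computed: 36 stayed within the 95% interval of the reported value over regions (within 1.5 times for counts), 14 moved and 0 reversed. The median log2 ratio of nucleosome tags was -0.91 in water-enriched regions, and -0.88 with unscaled counts, -0.82 with linker tags added and -0.99 in the 500 regions of highest score. In DSS-enriched regions it was 1.405, and 1.14 with linker tags added and 1.49 in the 500 regions of highest score. At 1.5-fold, 863 water-enriched regions passed in nucleosome tags and 763 in all tags, in place of 392 and 320. Stretches of 3 or more sites numbered 22 in each list, and 7 (water-enriched) and 8 (DSS-enriched) with gaps of at most 12500 bp. With gaps of 100 kb the water-enriched list gave 35. The difference in HNF4A overlap between the lists, 24.9 points for water peaks and 18.8 for DSS peaks, was 20.2 points when water peaks were limited to as many as in DSS, and 13.7 points for DSS peaks above the pooled median score. Within quartiles of tag level, an alternative added after the data were seen, it was 9.85 points for water and 6.33 for DSS peaks. The moves at 1.5-fold and with other gaps follow from the looser or stricter rule. For the others the cause was not tested. No paired analysis was possible because each group had 1 library. With at most 10 tags in the lower library, ratios were poorly fixed. The interval ran from 2.62 to 11.5 for a region with 10 water tags and from 8.59 to 2017 for one with 1. It had no upper limit where water held 0.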
